A study of Mus musculus with 12 samples.

Results

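The BCL2 family genes examined here are 10 regulators of apoptosis, followed in the mouse melanoma line B16F10. They were taken from the table of read counts as the rows whose Ensembl gene identifier maps to the mouse symbols Bcl2, Bcl2l1, Bcl2l2, Mcl1, Bak1, Bok, Bcl2l11, Bid, Bad and Bmf. Each symbol matched 1 row, so 10 of the 54752 genes in the table are members, and all 10 passed the filter on low counts that left 18434 genes for testing. RNA was sequenced from 4 groups of 3 libraries, namely cells with knockout of both Ep300 and Crebbp, cells with Ep300 knockout, cells with Crebbp knockout, and control cells whose genotype is given as WT. Their protein products, p300 and CBP, are closely related acetyltransferases that work as coactivators for many transcription factors. All groups share the same parental line and the same medium. The labels do not say how the knockouts were made, whether each is a clone or a pool, or whether replicate libraries came from separate cultures. The p-values below therefore reflect just the scatter among these libraries, and that scatter may be technical.

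BCL2 family proteins decide whether the outer mitochondrial membrane stays intact. Pro-survival members (the proteins BCL-2, BCL-XL, BCL-W and MCL-1, from Bcl2, Bcl2l1, Bcl2l2 and Mcl1) hold the pore-forming effectors BAK and BAX in check, whereas BH3-only members such as BIM (Bcl2l11), BID, BAD and BMF bind the pro-survival proteins or activate the effectors. BOK is an effector relative that is less dependent on the pro-survival proteins. In melanocytes and melanoma, Bcl2 is a known target of MITF, the master transcription factor of the lineage, and MCL-1 and BCL-XL are known survival factors.

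Libraries held 64257251 to 85604243 counts. The transcripts of the knocked-out genes did not follow every label. Crebbp averaged 64.0, 80.7, 34.5 and 64.7 CPM (counts scaled to a common library total, here by the trimmed mean of M values, TMM) in the libraries labelled double knockout, Ep300 knockout, Crebbp knockout and control. It was lower than in control in the libraries labelled Crebbp knockout (log2 fold change -0.91 ± 0.12, standard error, adjusted p = 0.000527), and not in those labelled double knockout (-0.02 ± 0.11, adjusted p = 0.922). Ep300 averaged 148, 85.1, 104 and 94.4 CPM in the same order, with a log2 fold change of -0.15 ± 0.10 in the libraries labelled Ep300 knockout (adjusted p = 0.376) and a rise of 0.65 ± 0.10 in those labelled double knockout (adjusted p = 7.33e-05). The edited sequence was not analysed here, so every direction below is that of the libraries as labelled. The cells carried their lineage label: the 7 melanocyte markers were all above 1 CPM in every group, although their summed level was 6526 to 6694 CPM in double knockout, 14299 to 15024 in Ep300 knockout, 18351 to 19164 in Crebbp knockout and 19448 to 21397 in control. Summed immune markers were 5.48 to 6.72, 3.25 to 3.83, 1.49 to 1.87 and 1.70 to 2.17 CPM in the same order of groups, with 4 of 5 under 1 CPM, and summed fibroblast markers were 12.7 to 13.8, 14.5 to 19.4, 8.54 to 12.3 and 6.37 to 8.14 CPM. Summed endothelial and epithelial markers stayed at or below 0.577 CPM in every library, and Krt18 was at 0 counts throughout. How reads that map to several genes were counted is not given, so that 0 does not settle whether Krt18 is expressed. The melanocyte, immune and fibroblast sums thus moved with the knockout groups, and their part in the results below was not tested. Single markers did not all follow the sums. In double knockout against control, 2 of 3 tested fibroblast markers rose and 1 fell, and just 1 of the 5 immune markers was tested. These 2 sums are therefore no measure of a cell type. In bulk RNA, fewer cells of a type and less RNA per cell cannot be told apart.

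CBP was named for its binding to CREB, which recognises the cAMP response element (CRE), and FOXO factors are known activators of Bcl2l11. The sequence just upstream of the transcript start is therefore shown for the 4 members with the largest changes in double knockout apart from the low-count Bok. The stretches are from RefSeq, build GRCm38.p6 (the mm10 build of the files), run 5′ to 3′ on the strand of the gene, and end before the start of the annotated transcript. Capitals mark the CRE core TGACG and the FOXO motif TGTTTAC or its reverse complement. The stretches lie at chr1:106714291-106714540 (minus strand, Bcl2), chr14:54883175-54883376 (plus strand, Bcl2l2), chr2:128125788-128126037 (plus strand, Bcl2l11) and chr2:118549688-118549936 (minus strand, Bmf).
Bcl2: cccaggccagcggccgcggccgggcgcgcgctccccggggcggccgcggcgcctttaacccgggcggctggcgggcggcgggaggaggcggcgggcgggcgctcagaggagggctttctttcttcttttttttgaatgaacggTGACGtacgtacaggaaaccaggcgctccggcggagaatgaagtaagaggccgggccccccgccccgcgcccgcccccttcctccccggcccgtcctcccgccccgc
Bcl2l2: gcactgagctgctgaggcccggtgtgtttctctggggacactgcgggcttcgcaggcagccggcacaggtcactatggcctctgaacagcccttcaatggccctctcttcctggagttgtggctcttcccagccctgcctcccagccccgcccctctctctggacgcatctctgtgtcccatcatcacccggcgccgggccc
Bcl2l11: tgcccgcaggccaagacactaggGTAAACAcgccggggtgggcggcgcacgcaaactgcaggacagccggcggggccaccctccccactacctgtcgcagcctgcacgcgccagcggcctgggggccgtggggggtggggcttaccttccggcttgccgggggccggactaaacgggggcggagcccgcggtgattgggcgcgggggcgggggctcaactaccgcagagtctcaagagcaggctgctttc
Bmf: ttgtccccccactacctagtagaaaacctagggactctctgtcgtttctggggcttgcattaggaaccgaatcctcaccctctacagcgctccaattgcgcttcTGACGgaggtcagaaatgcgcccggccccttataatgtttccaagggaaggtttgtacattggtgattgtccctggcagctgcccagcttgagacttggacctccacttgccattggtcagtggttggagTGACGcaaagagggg

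Upstream windows could be read for 9 members, since the RefSeq window of Bak1 lies inside the annotated gene. For each member just 1 window was read, the one nearest the annotated gene start. RefSeq has 3 windows for Bcl2l1 and Bmf and 2 for Bcl2l11 and Bad, and their other windows were not searched for the counts below. Motifs were searched on both strands. The CRE core TGACG was present in 2 of the 9 windows, those of Bcl2 (once) and Bmf (2 matches), against 17.8% of all 32851 RefSeq windows of 250 bases. It is contained in the full palindrome TGACGTCA, which none of the 9 windows held and 1.55% of all windows hold. The FOXO motif was present in the Bcl2l11 window alone, against 3.17% of all windows. The GC box GGGCGG was present in 7 of 9 windows, all but those of Bcl2l1 and Bmf, against 32.7% of all windows. None of the 9 held the E-box CACGTG (6.02% of all windows), the M-box TCATGTG that MITF is known to bind (3.25%), the STAT motif TTCNNNGAA (7.02%) or the interferon motif GAAANNGAA (7.13%). The 4 stretches also differed in composition, with 36 CpG dinucleotides in the 250 bases of Bcl2, 24 in the 250 of Bcl2l11, 9 in the 202 of Bcl2l2 and 8 in the 249 of Bmf. These matches describe letters in the window and are not evidence of binding.

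In double knockout against control, 7 of the 10 members passed the test (edgeR quasi-likelihood, Benjamini-Hochberg adjusted p under 0.05 over all tested genes), with 4 higher and 3 lower. Across all tested genes 49.4% passed in this comparison, so nothing particular to the family is read from the count. Bcl2, Mcl1 and Bmf fell, and Bcl2l2, Bak1, Bok and Bcl2l11 rose. The family thus did not move as a block by role: among the pro-survival genes Bcl2 and Mcl1 fell while Bcl2l2 rose, and among the BH3-only genes Bcl2l11 rose while Bmf fell. The median log2 fold change of the members was 0.09, against -0.02 over all tested genes. Their median absolute change was 0.42, against 0.37, without matching for level. In 8 members all double-knockout libraries lay beyond all control libraries, which held for 59.7% of all tested genes.

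**Figure D1:**
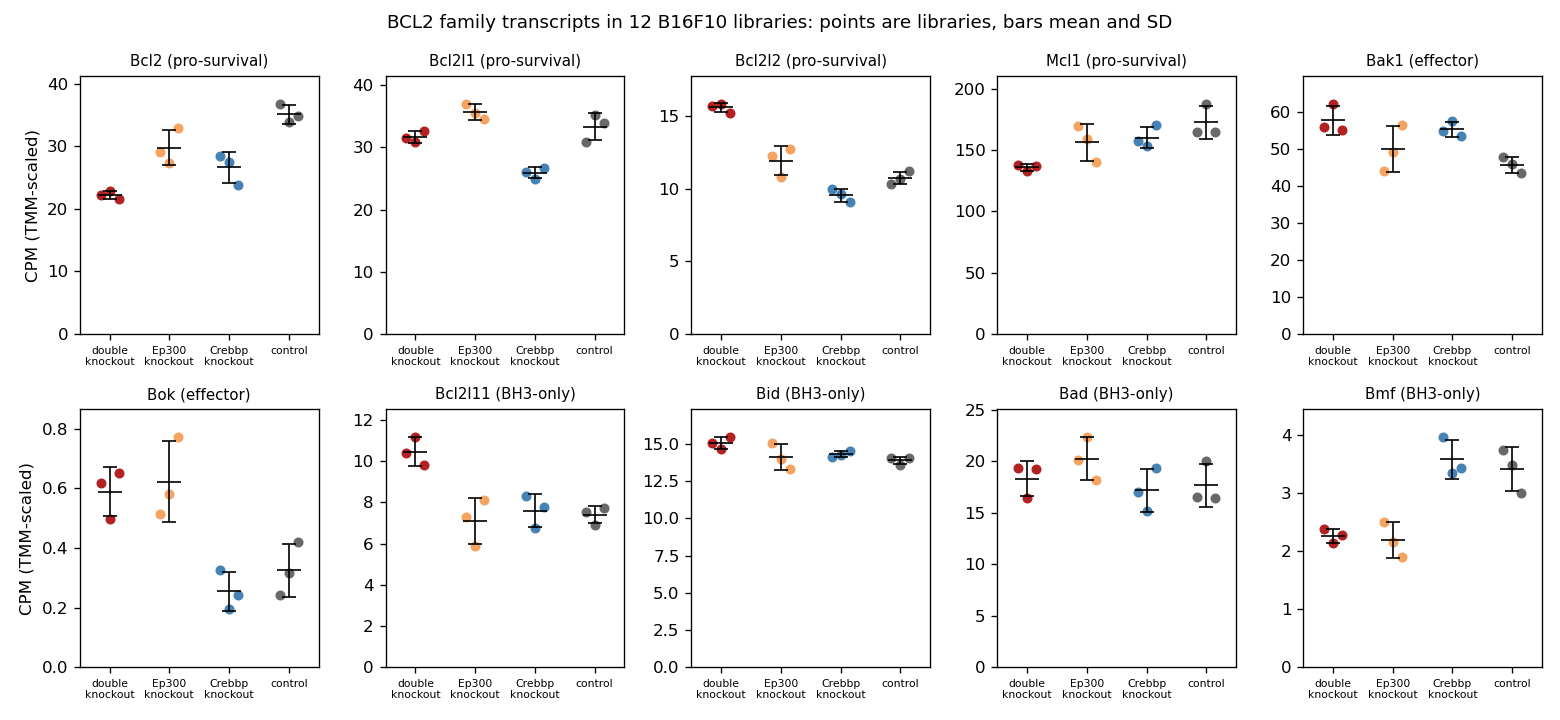
TMM-scaled CPM of each of the 10 members in the 12 libraries, with groups on the horizontal axis, 1 point per library, and the mean and SD of 3 libraries as bars. Bcl2 is lowest and Bcl2l2 and Bcl2l11 are highest in double knockout, and Bmf lies between 1.89 and 2.50 CPM in double and Ep300 knockout, below all Crebbp-knockout and control libraries.

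Bcl2 (chr1:106538178-106714274, minus strand) encodes the founding pro-survival protein. Its level was 22.2, 22.8 and 21.7 CPM in the double-knockout libraries, 29.1, 27.4 and 32.9 CPM in Ep300 knockout, 28.5, 27.5 and 23.9 CPM in Crebbp knockout and 36.8, 33.9 and 34.8 CPM in control. Every double-knockout library was below every other library, every control library was above every other, and the single knockouts lay between and overlapped each other. Double knockout had 0.632 times the control level (log2 fold change -0.66 ± 0.08, adjusted p = 9.22e-06). Crebbp knockout was lower than control by a smaller amount (-0.40 ± 0.08, adjusted p = 0.0164), and the Ep300-knockout value of -0.24 ± 0.08 missed the threshold (adjusted p = 0.0602). Double knockout was also below Ep300 knockout (-0.42 ± 0.08, adjusted p = 0.00129) and below Crebbp knockout (-0.26 ± 0.08, adjusted p = 0.0178). The change in double knockout differed from the sum of the single changes by -0.02 ± 0.12 (adjusted p = 0.931, 95% interval -0.27 to 0.22). The call in Crebbp knockout against control was lost without Crebbp-knockout replicate 2 (adjusted p = 0.0508), control replicate 1 (0.0633) or control replicate 3 (0.0502) and with only these 2 groups fitted (0.0529), and that between double and Crebbp knockout without double-knockout replicate 1 (0.0518) or 3 (0.0639) or Crebbp-knockout replicate 1 (0.0799) or 2 (0.0592). The Ep300-knockout value passed without Ep300-knockout replicate 3 (0.0143) or Crebbp-knockout replicate 3 (0.0293), and with DESeq2 (0.0415) or length and GC offsets (0.0175).

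Mcl1 (chr3:95658788-95663176, plus strand), whose short-lived protein restrains BAK, was the most abundant member. It had 138, 133 and 137 CPM in double knockout, 170, 159 and 140 CPM in Ep300 knockout, 157, 153 and 170 CPM in Crebbp knockout, and 165, 188 and 165 CPM in control. The double-knockout libraries were the lowest of the 12 and overlapped no other group. Mcl1 fell in double knockout against control (-0.34 ± 0.08, adjusted p = 0.00241) and against Crebbp knockout (-0.24 ± 0.08, adjusted p = 0.0274). Neither single knockout passed against control, with -0.14 ± 0.08 for Ep300 knockout (adjusted p = 0.283, 95% interval -0.31 to 0.03) and -0.11 ± 0.08 for Crebbp knockout (adjusted p = 0.519, 95% interval -0.28 to 0.06). With library totals in place of TMM the double-knockout change was -0.11 (adjusted p = 0.184), in a comparison where that scaling raised the median of all genes by 0.23. The call against Crebbp knockout was lost without any of double-knockout replicates 1 (adjusted p = 0.0607), 2 (0.0902) and 3 (0.0642) and without Crebbp-knockout replicate 1 (0.0519) or 3 (0.107), and with library totals (-0.04, 0.649). The value of -0.20 ± 0.08 against Ep300 knockout (adjusted p = 0.0671) passed without Ep300-knockout replicate 3 (-0.27, 0.0121) or control replicate 2 (0.0457), and with DESeq2 (0.0485). It also passed with length and GC offsets (0.0179) or a filter of at least 1 CPM in 3 libraries (0.0459).

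Bcl2l2 (chr14:54883377-54888234, plus strand), which encodes the pro-survival protein BCL-W, went the other way. It stood at 15.7, 15.9 and 15.2 CPM in double knockout, 12.2, 10.8 and 12.8 CPM in Ep300 knockout, 9.98, 9.63 and 9.09 CPM in Crebbp knockout and 10.3, 10.7 and 11.2 CPM in control. All double-knockout libraries were above all others, and all Crebbp-knockout libraries were below all control libraries. Double knockout had 1.45 times the control level (0.54 ± 0.08, adjusted p = 4.6e-05), and was above Ep300 knockout (0.39 ± 0.08, adjusted p = 0.00167) and Crebbp knockout (0.71 ± 0.08, adjusted p = 4.02e-06). The single knockouts did not pass against control, with 0.15 ± 0.08 for Ep300 knockout (adjusted p = 0.241) and -0.17 ± 0.08 for Crebbp knockout (adjusted p = 0.297), but they differed from each other (0.32 ± 0.08, adjusted p = 0.0137; 0.0604 when these 2 groups alone were fitted). An annotated gene on the same strand, Gm20521, shares 13.3% of the Bcl2l2 exon bases and had 0 counts in every library. How reads in the shared bases were counted is not given, so the part of Gm20521 in the Bcl2l2 counts was not tested.

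Bcl2l1 (chr2:152780668-152831728, minus strand), the gene of BCL-XL, passed against control in Crebbp knockout and not in double knockout. Its level was 31.4, 30.8 and 32.6 CPM in double knockout, 37.0, 35.5 and 34.5 CPM in Ep300 knockout, 26.0, 25.0 and 26.7 CPM in Crebbp knockout, and 30.9, 35.1 and 33.9 CPM in control. The Crebbp-knockout libraries were the lowest of all 12, as they also were for Bcl2l2, and double knockout overlapped control. Bcl2l1 fell in Crebbp knockout against control (-0.36 ± 0.07, adjusted p = 0.00811), whereas double knockout differed from control by -0.07 ± 0.07 (adjusted p = 0.379, 95% interval -0.21 to 0.07). Double knockout was above Crebbp knockout (0.29 ± 0.07, adjusted p = 0.00239), as was Ep300 knockout (0.46 ± 0.07, adjusted p = 0.000151). The call in Crebbp knockout was lost without Crebbp-knockout replicate 2 (-0.34, adjusted p = 0.0541). The difference of -0.17 ± 0.07 between double and Ep300 knockout (adjusted p = 0.0516) passed without Ep300-knockout replicate 3 (0.0392), control replicate 1 (0.0476) or control replicate 2 (0.0396), and with DESeq2 (0.0293). It also passed with limma-voom (0.0482), length and GC offsets (0.00437), a filter of at least 1 CPM in 3 libraries (0.0306) or only these 2 groups fitted (0.0461). With length and GC offsets Bcl2l1 also passed in double knockout against control (-0.20, adjusted p = 0.0192).

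Bak1 (chr17:27019810-27029009, minus strand) encodes the effector that MCL-1 and BCL-XL sequester. It had 55.9, 62.3 and 55.1 CPM in double knockout, 44.1, 49.2 and 56.5 CPM in Ep300 knockout, 54.9, 57.5 and 53.6 CPM in Crebbp knockout, and 47.8, 45.9 and 43.5 CPM in control. Double and Crebbp knockout lay above all control libraries, and Ep300 knockout spanned both ranges. Bak1 rose in double knockout (0.34 ± 0.08, adjusted p = 0.00396), and the rise held in every alternative fit. The Crebbp-knockout value of 0.27 ± 0.08 missed the threshold (adjusted p = 0.0952). It passed without Ep300-knockout replicate 3 (0.037), and with DESeq2 (0.0419), no count filter (0.0437) or length and GC offsets (0.046). Without Ep300-knockout replicate 3 the values of 0.21 ± 0.08 for double against Ep300 knockout (adjusted p = 0.0672) and of -0.15 ± 0.08 for Ep300 against Crebbp knockout (adjusted p = 0.299) also passed, at 0.31 (0.00581) and -0.25 (0.0445). With library totals in place of TMM the value for double against Ep300 knockout passed as well, at 0.38 (0.0139). Ggnbp1, on the opposite strand, overlaps 18.2% of the Bak1 exon bases and had 28 to 65 counts per library.

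Bok (chr1:93685660-93695764, plus strand) was scarce, with 13 to 65 counts per library. Its level was 0.620, 0.496 and 0.652 CPM in double knockout, 0.514, 0.581 and 0.774 CPM in Ep300 knockout, 0.326, 0.194 and 0.242 CPM in Crebbp knockout and 0.241, 0.315 and 0.419 CPM in control. The libraries of double and Ep300 knockout were all above those of Crebbp knockout and control, which overlapped. Bok rose in double knockout (0.86 ± 0.29, adjusted p = 0.022) and in Ep300 knockout (0.94 ± 0.29, adjusted p = 0.0368) against control. It was also higher in double knockout (1.20 ± 0.30, adjusted p = 0.00419) and in Ep300 knockout (1.29 ± 0.30, adjusted p = 0.00852) than in Crebbp knockout. At this depth the calls against control depended on single libraries. In double knockout the call was lost without double-knockout replicate 1 (adjusted p = 0.0583) or 3 (0.0689) or control replicate 1 (0.0964) or 2 (0.0505), and with length and GC offsets (0.0555). In Ep300 knockout it was lost without double-knockout replicate 1 (0.0523), Ep300-knockout replicate 2 (0.067) or 3 (0.154), or control replicate 1 (0.15) or 2 (0.0782), and with no count filter (0.0512), length and GC offsets (0.0548) or only these 2 groups fitted (0.0835). Both calls against Crebbp knockout held in every alternative in which Bok was tested.

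Among the BH3-only genes, Bcl2l11 (chr2:128126038-128162547, plus strand), which encodes the broad pro-survival antagonist BIM, rose in double knockout. Its level was 10.4, 11.2 and 9.82 CPM in double knockout, 7.29, 5.89 and 8.10 CPM in Ep300 knockout, 8.31, 6.73 and 7.77 CPM in Crebbp knockout and 7.53, 6.93 and 7.73 CPM in control. The double-knockout libraries were above all 9 others, and the other 3 groups overlapped one another. Double knockout had 1.41 times the control level (0.50 ± 0.11, adjusted p = 0.00204), and exceeded Ep300 knockout (0.56 ± 0.11, adjusted p = 0.0018) and Crebbp knockout (0.46 ± 0.11, adjusted p = 0.00438). The single knockouts differed from control by -0.06 ± 0.12 (Ep300 knockout, adjusted p = 0.798, 95% interval -0.31 to 0.19) and 0.04 ± 0.12 (Crebbp knockout, adjusted p = 0.892, 95% interval -0.21 to 0.29).

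Bmf (chr2:118528757-118549687, minus strand), a BH3-only gene whose protein is held by the cytoskeleton, fell in both groups labelled with Ep300 knockout. It had 2.37, 2.13 and 2.28 CPM in double knockout, 2.50, 2.16 and 1.89 CPM in Ep300 knockout, 3.96, 3.33 and 3.42 CPM in Crebbp knockout and 3.73, 3.48 and 3.00 CPM in control. The libraries of double and Ep300 knockout overlapped each other and were all below those of the other 2 groups. Against control, Bmf fell in double knockout (-0.59 ± 0.13, adjusted p = 0.00183) and by a like amount in Ep300 knockout (-0.64 ± 0.13, adjusted p = 0.00342). Crebbp knockout differed from control by 0.07 ± 0.13 (adjusted p = 0.817, 95% interval -0.21 to 0.35), and double from Ep300 knockout by 0.05 ± 0.14 (adjusted p = 0.801, 95% interval -0.24 to 0.34). Both groups with Ep300 knockout were below Crebbp knockout, by -0.66 ± 0.13 in double knockout (adjusted p = 0.000953) and -0.71 ± 0.13 in Ep300 knockout (adjusted p = 0.00192).

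Bid and Bad passed in none of the comparisons. Bid (chr6:120891930-120916853, minus strand), which links caspase-8 to mitochondria, ranged from 13.3 to 15.5 CPM over all 12 libraries and differed from control by 0.12 ± 0.07 in double knockout (adjusted p = 0.164, 95% interval -0.03 to 0.26). Bad (chr19:6941861-6951899, plus strand), whose protein is silenced by survival-kinase phosphorylation, ranged from 15.2 to 22.4 CPM and differed by 0.06 ± 0.11 (adjusted p = 0.715, 95% interval -0.18 to 0.29). With library totals in place of TMM both passed in double knockout, at 0.35 for Bid (adjusted p = 0.0017) and 0.29 for Bad (adjusted p = 0.0148), against the shift of 0.23 in the median of all genes. Opposite-strand genes overlap both, Bcl2l13 with 17.7% of the Bid exon bases and 5079 to 8479 counts, and Gpr137 with 20.5% of the Bad exon bases and 512 to 1073 counts. Gpr137 was higher in double knockout than in control (0.47 ± 0.08, adjusted p = 0.000244). The strand setting of the counting is not given in the sources used here, so the part of these neighbours in the Bid and Bad counts was not tested.

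**Figure D2:**
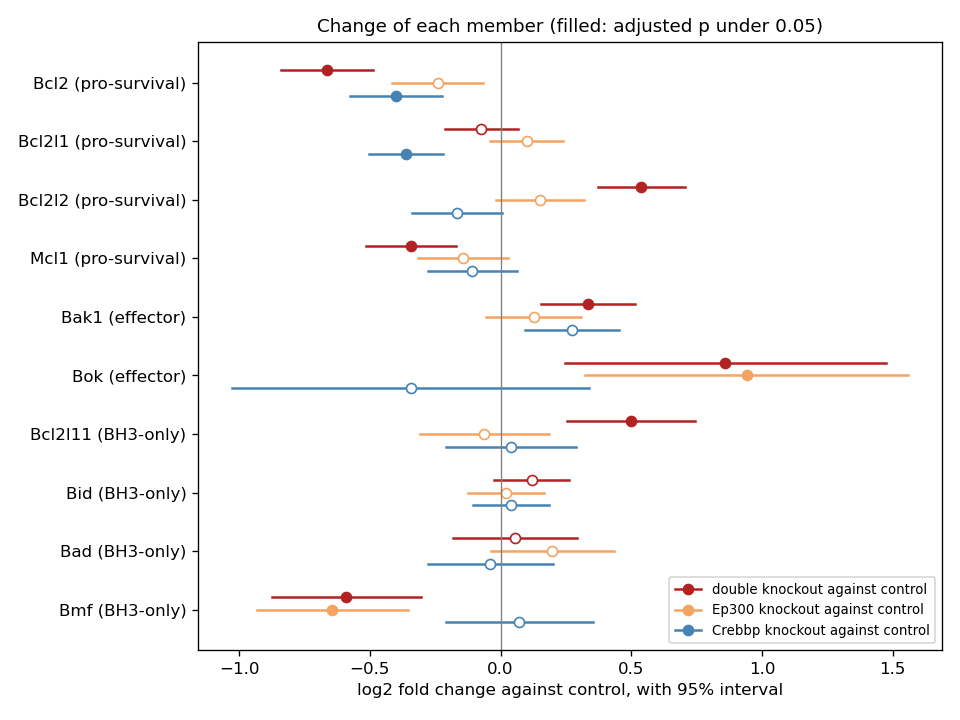
Log2 fold change of each member against control (horizontal axis) with its 95% interval, for double, Ep300 and Crebbp knockout from top to bottom within a gene. Filled points passed at adjusted p under 0.05: 7 in double knockout, 2 in Ep300 knockout (Bok and Bmf) and 2 in Crebbp knockout (Bcl2 and Bcl2l1).

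Fewer members passed in the single knockouts than in double knockout. In Ep300 knockout against control 1 member rose (Bok) and 1 fell (Bmf), with 16.1% of all tested genes called. In Crebbp knockout against control none rose and 2 fell (Bcl2 and Bcl2l1), with 3.13% of all tested genes called. These comparisons share the control libraries, and the differences between the single knockouts were therefore tested directly. Between Ep300 and Crebbp knockout 3 members were higher (Bcl2l1, Bcl2l2 and Bok) and 1 lower (Bmf), with 13.6% of all tested genes called. Bcl2, called in Crebbp knockout and not in Ep300 knockout, did not pass in that direct test (0.16 ± 0.08, adjusted p = 0.24). Against Ep300 knockout, double knockout had 2 members higher (Bcl2l2 and Bcl2l11) and 1 lower (Bcl2), with 34.6% of all tested genes called. Against Crebbp knockout it had 4 higher (Bcl2l1, Bcl2l2, Bok and Bcl2l11) and 3 lower (Bcl2, Mcl1 and Bmf), with 43.2% called. The numbers of members without overlap were 3 in Ep300 knockout against control (28.4% of all tested genes) and 5 in Crebbp knockout against control (20.5%).

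The double-knockout change was then set against the sum of the single-knockout changes. Bcl2l2 was the 1 member that passed, with 10.3% of all tested genes called in this test. Its single-knockout changes of 0.15 and -0.17 nearly cancelled, while double knockout gave 0.54, an excess of 0.55 ± 0.11 (adjusted p = 0.00554, 95% interval 0.32 to 0.79) that held in every alternative. Bcl2l11 had an excess of nearly the same size and missed the threshold (0.52 ± 0.16, adjusted p = 0.055). It passed without Ep300-knockout replicate 3 (0.63, adjusted p = 0.0173), Crebbp-knockout replicate 1 (0.59, 0.0473) or control replicate 2 (0.57, 0.0389), and with DESeq2 (0.52, 0.0199). It also passed with no count filter (0.0111), a filter of at least 1 CPM in 3 libraries (0.0435) or library totals in place of TMM (0.0409). For the other 8 members the excess lay between -0.10 (Bad) and 0.26 (Bok), with adjusted p of 0.216 or more. The median absolute excess was 0.10 over the members, against 0.26 over all tested genes. The genes were not matched for level, so nothing particular to the family is read from these medians.

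**Figure D3:**
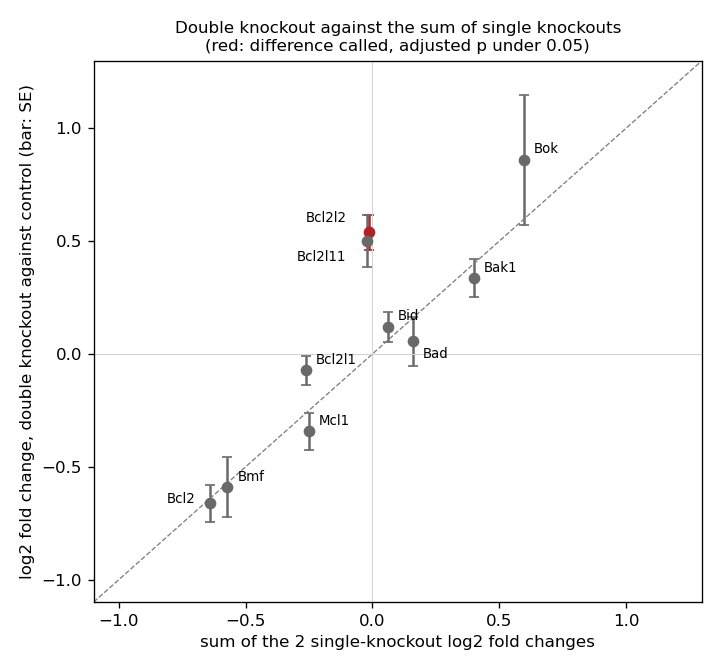
Log2 fold change of each member in double knockout against control (vertical axis, bar SE) over the sum of the Ep300-knockout and Crebbp-knockout changes (horizontal axis), with the dashed line where both are equal. Bcl2l2 (red) passed the test of the difference at 0.55, Bcl2l11 lies beside it, and Bcl2 and Bmf lie near the line.

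Levels were compared between genes after division by exon length, as CPM per kb. The length counted all annotated exons of a gene. Which transcripts were expressed was not tested, so the order between genes depends on this length. In control, Mcl1 stood highest at 50.5 ± 3.86 CPM per kb (SD, n = 3), followed by Bak1 at 19.0 ± 0.90, Bcl2l1 at 7.26 ± 0.47 and Bad at 6.91 ± 0.81. Bid at 3.92 ± 0.07, Bcl2 at 3.84 ± 0.17 and Bcl2l2 at 2.41 ± 0.10 were intermediate. Bcl2l11 at 0.92 ± 0.05, Bmf at 0.65 ± 0.07 and Bok at 0.18 ± 0.05 were lowest. Neighbours in this order had separate ranges in control except Bcl2l1 with Bad and Bid with Bcl2. The order changed at one place in double knockout beyond the spread of the libraries: Bcl2l2 at 3.50 ± 0.07 ranked above Bcl2 at 2.43 ± 0.06 CPM per kb, with no overlap, whereas Bcl2 ranked above Bcl2l2 without overlap in each other group. In Crebbp knockout Bad at 6.72 ± 0.81 ranked above Bcl2l1 at 5.65 ± 0.19 CPM per kb, also with no overlap. Neither change of order was present in CPM without division by length. Bcl2 averaged 22.2 and Bcl2l2 15.6 CPM in double knockout, and Bcl2l1 averaged 25.9 and Bad 17.2 CPM in Crebbp knockout.

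**Figure D4:**
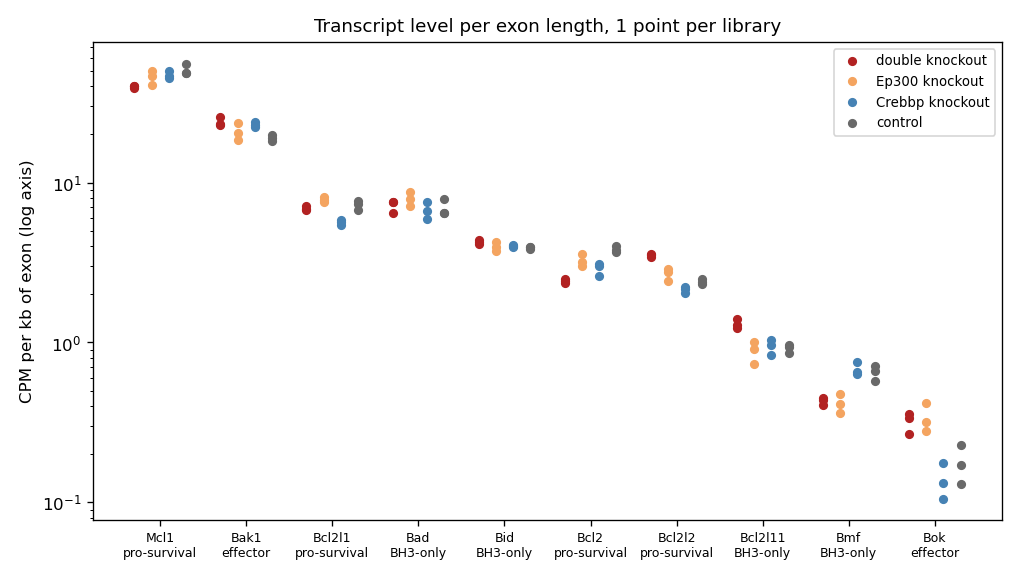
CPM per kb of exon of each member on a log axis, 1 point per library, with genes ordered by their control level and groups in the order double, Ep300, Crebbp knockout and control within a gene. Mcl1 is highest and Bok lowest in all groups, and on this scale, not in CPM, Bcl2 drops below Bcl2l2 in double knockout.

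Ratios within a library do not depend on how libraries are scaled. The ratio of Bcl2 to Bcl2l2 (CPM per kb) was 0.688, 0.701 and 0.692 in double knockout, 1.16, 1.24 and 1.26 for Ep300 knockout, 1.39, 1.39 and 1.28 for Crebbp knockout and 1.74, 1.54 and 1.51 in control. No group overlapped another. The ratio of Bcl2 to Bcl2l11, a pro-survival gene over its BH3-only antagonist, averaged 1.86 ± 0.07 in double knockout, 3.71 ± 0.32 for Ep300 knockout, 3.10 ± 0.45 for Crebbp knockout and 4.18 ± 0.20 in control (SD, n = 3). Double knockout lay below all other libraries. For Mcl1 to Bak1 the ratio averaged 1.67 ± 0.14, 2.25 ± 0.49, 2.04 ± 0.18 and 2.66 ± 0.23 in the same order of groups, and the Ep300-knockout libraries overlapped all other groups. These ratios were chosen after the values of the members were seen and are given without a test.

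Summed by role, the 4 pro-survival genes reached 52.6 ± 0.82 CPM per kb in double knockout, 59.5 ± 4.39 for Ep300 knockout, 57.6 ± 2.45 for Crebbp knockout and 64.0 ± 4.09 in control, most of it from Mcl1. The effectors Bak1 and Bok summed to 24.3 ± 1.59, 21.1 ± 2.67, 23.1 ± 0.82 and 19.2 ± 0.85 CPM per kb in the same order of groups. The 4 BH3-only genes summed to 13.2 ± 0.70, 13.2 ± 0.84, 12.4 ± 0.92 and 12.4 ± 0.70. The pro-survival share of the 10-gene sum was 58.4% ± 0.95 in double knockout, 63.4% ± 3.10 for Ep300 knockout, 61.9% ± 0.92 for Crebbp knockout and 67.0% ± 1.15 in control. The lowest control library was at 65.7% and the highest double-knockout library at 59.0%. These sums leave out Bax, an effector outside the member list. In control Bax had 126 CPM and Bak1 45.8 CPM, and in double knockout Bax had 82.5 CPM and Bak1 57.7 CPM. Bax thus fell where Bak1 rose and had the higher CPM in both groups. The effector sum and the pro-survival share therefore hold for the 10 members only and give no direction for the effectors as a whole.

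**Figure D5:**
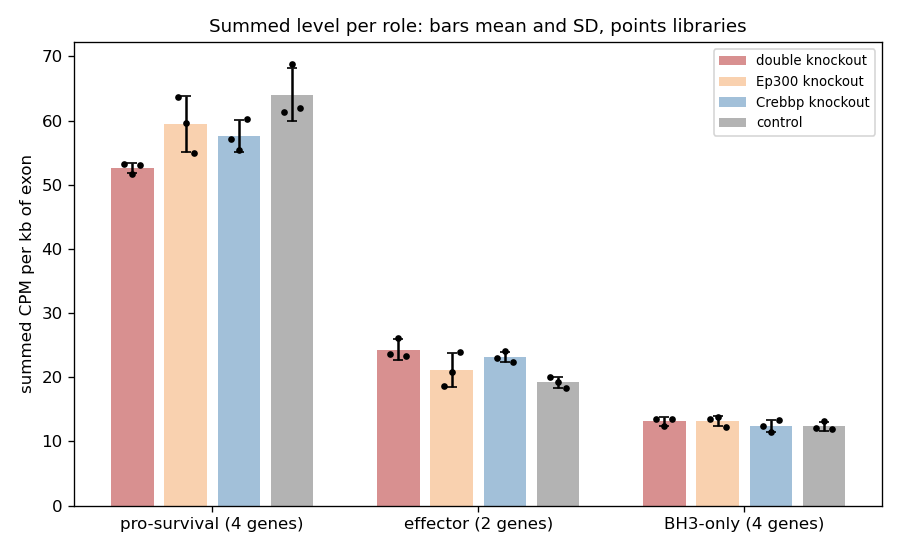
Summed CPM per kb of exon of the 4 pro-survival, 2 effector and 4 BH3-only members, with groups in the order double, Ep300, Crebbp knockout and control, bars as mean and SD of 3 libraries and points as libraries. The pro-survival sum averages 52.6 in double knockout and 64.0 in control, and the BH3-only sums average between 12.4 and 13.2. The effector sum leaves out Bax, which is not a member.

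The other genes of the pathway give the setting. Of 15 further BCL2 family genes, 7 were tested, and in double knockout against control none rose and 1 fell. The gene that fell was Bax, the effector partner of Bak1, at 82.5 ± 6.49 CPM in double knockout and 126 ± 12.9 CPM in control (-0.61 ± 0.10, adjusted p = 0.000111). Bax and Bak1 therefore moved in opposite directions in this comparison. The genes not tested were Bik, Bcl2a1a, Bcl2a1b, Bcl2a1d, Bcl2l10, Bcl2l14, Bcl2l15 and Pmaip1, with 0 to 7 counts in any library. The counts of the pro-survival gene group Bcl2a1 were thus near 0. Pmaip1 had 0 counts in every library. How reads that map to several genes were counted is not given, so these counts do not settle whether Bcl2a1 or Pmaip1 is expressed. The median over the 7 tested genes was -0.28. In both single knockouts none of the 7 passed in edgeR; at unadjusted p under 0.05 there was 1 in Ep300 knockout and 0 in Crebbp knockout, DESeq2 called 1 and 0, and limma-voom called 0 and 0.

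Among 14 caspase and apoptosome genes in double knockout, 4 rose, 3 fell and 7 did not pass (median 0.04). Xiap, an inhibitor of caspases, averaged 145 ± 0.78 CPM in double knockout and 106 ± 0.79 CPM in control (0.45 ± 0.06, adjusted p = 2e-05). Of 8 death receptor genes, 3 rose, 2 fell and 3 did not pass (median 0.02). Ripk1, a kinase of the death receptor complex, rose (0.60 ± 0.07, adjusted p = 6.65e-06), and Fadd, an adaptor of that complex, fell (-0.53 ± 0.08, adjusted p = 3.67e-05). Of 8 regulators and partners of BCL2 proteins, 3 rose, 2 fell and 3 did not pass (median 0.09). Usp9x, a deubiquitinase known to stabilise MCL-1, averaged 407 ± 26.0 CPM in double knockout and 256 ± 25.1 CPM in control (0.67 ± 0.10, adjusted p = 5.3e-05), and Vdac2, a mitochondrial channel that binds BAK, fell (-0.40 ± 0.07, adjusted p = 0.000135). Of 11 upstream transcription factors, 4 rose, 3 fell and 4 did not pass (median 0.08). Mitf, the lineage factor, averaged 355 ± 9.07 CPM in double knockout, 668 ± 37.8 for Ep300 knockout, 843 ± 4.08 for Crebbp knockout and 925 ± 21.6 CPM in control, with -1.38 ± 0.07 in double knockout (adjusted p = 4.93e-10). Stat3, a known activator of Mcl1 and Bcl2l1, rose (1.34 ± 0.10, adjusted p = 3.12e-08). These shares of called genes stood beside 49.4% of all tested genes, and the fold changes of the 8 genes named here kept their call in every alternative fit.

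The members Bcl2, Bcl2l2 and Bmf had the smallest adjusted p in double knockout among the 10, and the genes most like them were sought over the 12 libraries among named genes averaging 5 CPM or more. For Bcl2 they were Gpd1 (Pearson r of log2 CPM 0.97), Plod1 (0.97) and Mboat1 (0.96). For Bcl2l2 they were Ptpn12 (0.98), Tob1 (0.98) and Apobec1 (0.97). For Bmf they were Fpgt (0.96), Gcnt1 (0.96) and Dync1li1 (0.95). The 12 points of each correlation fall into 4 groups that share libraries and scaling, so these values describe a shared order of the groups.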

How the data were processed

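RNA was sequenced from B16F10 cells with a stranded mRNA kit, per the labels' protocols. The table deposited by the authors gives unnormalized read counts for each Ensembl gene, made with bcl2fastq, HISAT2 and HTSeq on build mm10 per the submitters' processing notes. No version, annotation release or strand setting is given in the sources used here. All 12 columns were used. GENCODE annotation of the same build gave symbols, coordinates and union exon lengths to 54723 of 54752 genes.

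Genes were filtered with filterByExpr, scaled by TMM and tested with the robust quasi-likelihood F test of edgeR 4.0.16 (R 4.3.3), fitted on all 12 libraries with the group as the only term, without a replicate block. Benjamini-Hochberg adjustment ran over the 18434 tested genes within each comparison, with a threshold of 0.05. The ± beside a log2 fold change is a standard error from the F statistic, beside a level the SD, with n = 3 libraries per group. The biological coefficient of variation was 9.46%. The fit was also run on simulated data, with the outcome not reported here. Replicate libraries differed beyond sampling noise, so none was counted as a duplicate.

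Named were all 10 members, the 2 genes per pathway list with the smallest adjusted p under 0.05 in double knockout against control, the 3 genes most correlated with each of the 3 members of smallest adjusted p, and the targeted genes; 1 gene so picked is not reported here. Members and lists were chosen with earlier results of these data known. Alternatives were DESeq2 1.42.0, limma-voom (limma 3.58.1), RLE size factors, other count filters, only the groups compared, length and GC offsets, the replicate block, leaving out each library, and library totals without TMM, which was added after the data were seen.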

Additional observations from a re-analysis of the deposited data

Results flagged for a closer look

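Bcl2l2 was singled out because its change with the Crebbp-knockout label differed with the Ep300 label, by a test of the difference itself. Its log2 level changed by 0.39 in double against Ep300 knockout and by -0.17 in Crebbp knockout against control. These changes differed by 0.55 (edgeR quasi-likelihood, adjusted p = 0.00554). The Crebbp transcript itself was at 64.0 CPM in the libraries labelled double knockout and 64.7 CPM in control. The difference is therefore one between labelled groups, and a dependence on either gene was not tested. The 3 double-knockout libraries were above all 9 others. With 3 libraries per group, no search for single outlying libraries was made.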

How the results depend on the processing

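Of 70 results for the 10 members over 7 comparisons, 26 passed. Of these, 17 passed with the same direction in every alternative in which the gene was tested. Of 1453 alternative values, 0 reversed a called direction, and 40 changed sign where neither value passed. In Ep300 knockout against control 2 members passed, and 1 passed with no filter on low counts, with a filter of 1 CPM (where Bok was not tested) or with only the groups compared. In Crebbp knockout against control 2 passed, and 1 passed with only the groups compared or with library totals. In double against Ep300 knockout 3 passed, and 5 passed with the 1 CPM filter, with length and GC offsets or with DESeq2. In the test of additivity 1 passed, and 2 passed with no filter, the 1 CPM filter, DESeq2 or library totals. Leaving out 1 library at a time gave 1 to 3 members in Ep300 knockout, 0 to 3 in Crebbp knockout, 6 to 7 in double knockout, 3 to 6 in double against Ep300 knockout, 5 to 7 in double against Crebbp knockout, 4 to 5 in Ep300 against Crebbp knockout and 1 to 2 for additivity. In double against Ep300 knockout the count of 6 came without Ep300-knockout replicate 3.

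Over all genes in Crebbp knockout against control, 577 passed, against 1270 with no filter, 1376 with length and GC offsets, 1265 with DESeq2 257 with only the groups compared, and, leaving out 1 library, 299 without Crebbp-knockout replicate 1, 214 without replicate 2, 365 without control replicate 1 and 246 without control replicate 3. For additivity 1897 passed, against 1119 without double-knockout replicate 2, 1143 without Ep300-knockout replicate 2 and 1197, 2861 and 1128 without control replicates 1, 2 and 3. Library totals in place of TMM raised the median of all genes by 0.23 in double knockout against control, 0.17 against Ep300 knockout, 0.20 against Crebbp knockout and 0.13 for additivity. With them Bcl2 no longer passed in double against Ep300 knockout (-0.26, adjusted p = 0.0907) or Crebbp knockout (-0.07, adjusted p = 0.641), nor in Crebbp knockout against control (-0.36, adjusted p = 0.118).

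The replicate numbers gave no sign of pairing: 0 of 18 same-numbered pairs had deviations correlated above 0.1 (-0.129 to 0.0964). Of 36 differently numbered pairs 4 did (-0.192 to 0.178). These correlations cannot exclude a culture or preparation day shared between libraries. With the replicate block 321 genes passed in Crebbp knockout against control, Mcl1 no longer passed in double against Crebbp knockout (-0.24, adjusted p = 0.0514), and Bcl2l2 kept its additivity call (0.55, adjusted p = 0.0178). Where a call changed, the cause was not tested. At the depth of these libraries, counting limits mainly Bok.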
